A study of Mus musculus with 15 samples.

Results

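The genes described here are *Piwil1*, *Piwil2* and *Piwil4*, which encode the mouse PIWI proteins, and *Spocd1*, *Tex15* and *Morc1*, which encode nuclear proteins that act with or beside them in the foetal male germline. They were chosen by name, and they are 6 of the 54838 genes in the count tables of E16.5 gonocytes. All 6 passed the filter on low counts, which left 16311 genes. Gonocytes, the foetal male germ cells, were sorted at E16.5 from *Tex15*+/- and *Tex15*-/- foetuses of a mixed B6CBAF1/Crl; C57BL/6N background, with 3 libraries of ribosomal RNA-depleted total RNA in each group. The controls were therefore heterozygous for the *Tex15* null allele. That allele was made with CRISPR by an insertion with stop codons in exon 5, and the line descended from a single founder. Per the study's methods, the cells of both groups were sorted on tdTomato expressed from 1 *Miwi2* (*Piwil4*) allele, so the sort itself used the *Piwil4* locus and every library carried 1 reporter allele of that gene. Nothing in the labels says whether the libraries of a group came from separate litters, so p-values measure the spread between these samples, which may in part be technical.

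PIWI proteins bind piRNAs, small RNAs of the germline that guide them to the transcripts of transposable elements (TEs). MILI, the product of *Piwil2*, is a cytoplasmic slicer, and the fragments it cuts give rise to further piRNAs. MIWI2, the product of *Piwil4*, has no need to cut: once it carries a piRNA it moves into the nucleus and acts at the TE loci that are being methylated. SPOCD1 is a nuclear partner of MIWI2 without which young TEs stay unmethylated, TEX15 is a large nuclear protein that associates with MIWI2, and MORC1 is an ATPase of the Microrchidia family that is needed for the methylation and silencing of TEs in male germ cells. MIWI (PIWIL1) is best known from postnatal spermatocytes and spermatids.

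In GRCm38, the build to which the authors aligned, *Piwil1* (ENSMUSG00000029423) lies at chr5:128702524-128755474 on the plus strand, *Piwil2* (ENSMUSG00000033644) at chr14:70372477-70429383 on the minus strand and *Piwil4* (ENSMUSG00000036912) at chr9:14696230-14740733 on the minus strand. *Spocd1* (ENSMUSG00000028784) lies at chr4:129929249-129957115, *Tex15* (ENSMUSG00000009628) at chr8:33516738-33585582 and *Morc1* (ENSMUSG00000022652) at chr16:48431237-48630900, all on the plus strand. The merged exons ranged from 3223 bp for *Spocd1* to 9622 bp for *Tex15*. No stretch of 72 bases, the length of a trimmed read, was shared between the transcripts of 5 of the genes and those of any other gene. For *Piwil4*, 1.23% of its stretches were also found in the antisense gene *Gm10706*, which overlaps 137 of its exon bases. *Gm10706* held between 4 and 22 reads per library against 893 to 1063 for *Piwil4*, so few reads of *Piwil4* can have been counted on *Gm10706*. Reads in the shared bases that were counted on neither gene are not seen in these values.

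Some transcripts of these genes also appeared as small RNAs in whole foetal testes, in a separate set of libraries. The sequences below are the most frequent sense read of 25 to 30 nt with 1 place in the genome for the 4 genes with over 100 sense reads in all, and the most frequent antisense read of *Tex15*, the only one of the genes with more than 11 antisense reads. The capital marks the first base, which is U in most mouse piRNAs and is written as T in the tables.
*Piwil2* sense: Tcgatgatgtggactggaacaagacc
*Morc1* sense: Taccttcatggctaacgagaaccaga
*Spocd1* sense: Tagagtactggtctgtacagaggggc
*Tex15* sense: Catgtggatcaaggatctggaaaaccaaac
*Tex15* antisense: Aattctgttcagagtgagtgtgctgtac

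The *Piwil2* sequence lies at chr14:70402093-70402118 in coding exon 11 of 23 and was read 9 times, 8 of them in control 2. The *Morc1* sequence lies at chr16:48452445-48452470 in coding exon 7 of 27. It was read 23 times, in 5 of the 6 libraries, with 16 of the reads in control 2. The *Spocd1* sequence lies at chr4:129929378-129929403 in the non-coding part of exon 1 and was read 6 times, in 4 libraries. Both *Tex15* sequences lie in coding exons of the transcript Tex15-201. The sense sequence at chr8:33573436-33573465 was read 17 times, 8 of them in control 2 and 8 in *Tex15*-/- library 2. The antisense sequence, on the minus strand at chr8:33582248-33582275, was read 19 times, 10 of them in control 2 and 6 in *Tex15*-/- library 2.

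The gonocyte libraries held 4893265 to 5697020 reads on genes. The germ cell label was checked against 8 germ cell markers, among them *Ddx4* and *Dazl*. Their summed level was 1555 to 1631 counts per 1000000 reads on genes (CPM, scaled by TMM factors) in controls and 1488, 1386 and 1567 CPM in *Tex15*-/- libraries 1, 2 and 3. Markers of other testis cells differed between libraries. The summed level of 7 interstitial and mesenchymal markers was 61.8 to 76.2 CPM in controls and 61.9 CPM in *Tex15*-/- library 1, but 1813 CPM in library 2 and 425 CPM in library 3. The 6 Leydig cell markers summed to 18.8 to 61.6 CPM in controls and to 36.9, 584 and 177 CPM in the *Tex15*-/- libraries, and the 8 Sertoli cell markers to 12.5 to 16.9 CPM and to 13.8, 125 and 80.9 CPM. The 5 endothelial markers summed to 55.5 to 56.8 CPM in controls and to 42.7, 202 and 55.2 CPM, and the 7 blood cell markers to 11.9 to 13.2 CPM and to 11.2, 45.6 and 53.1 CPM. All 11 tested Leydig and interstitial markers had a positive log2 fold change and an unadjusted p under 0.05. The defining Leydig marker *Insl3* was at 0 in the controls and in *Tex15*-/- library 1, at 5.27 CPM in library 2 and at 0.381 CPM in library 3. The reads counted as lying in no gene made up 20.4% to 24.4% of the table in controls and 23.3%, 11.1% and 16.04% in the *Tex15*-/- libraries. *Tex15*-/- libraries 2 and 3 thus stood apart, and the fold changes and ratios of the 6 genes are given also without them.

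Levels of different genes were compared per length, as transcripts per 1000000 (TPM), from the 3 control libraries. *Tex15* was the highest of the genes, in controls that were heterozygous for its null allele. It had 56.5, 71.6 and 66.5 TPM in controls 1, 2 and 3, a mean of 64.9 ± 7.70 (SD, n = 3), and ranked 106 of 21998 protein-coding genes. *Piwil2* followed with 50.2, 54.2 and 53.4 TPM, a mean of 52.6 ± 2.11 (SD, n = 3) and rank 130. *Spocd1* had 44.2, 45.8 and 35.6 TPM, a mean of 41.9 ± 5.47 (SD, n = 3) and rank 171. *Morc1* had 26.5, 32.9 and 31.1 TPM, a mean of 30.2 ± 3.30 (SD, n = 3) and rank 262. These 4 genes were within the top 1.19% of protein-coding genes.

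The nuclear PIWI gene was lower, in libraries whose cells all carried a reporter allele of it and were sorted on that reporter. Gene counts do not show how far transcripts of that allele were counted on *Piwil4*. *Piwil4* had 13.1, 13.8 and 12.7 TPM, a mean of 13.2 ± 0.539 (SD, n = 3), and ranked 798 of 21998. *Piwil1* was the lowest, with 6.69, 8.08 and 5.80 TPM, a mean of 6.86 ± 1.15 (SD, n = 3) and rank 1783, which still placed it in the top 8.10% of protein-coding genes. In this order each gene lay above the next in every control library.

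**Figure D1:**
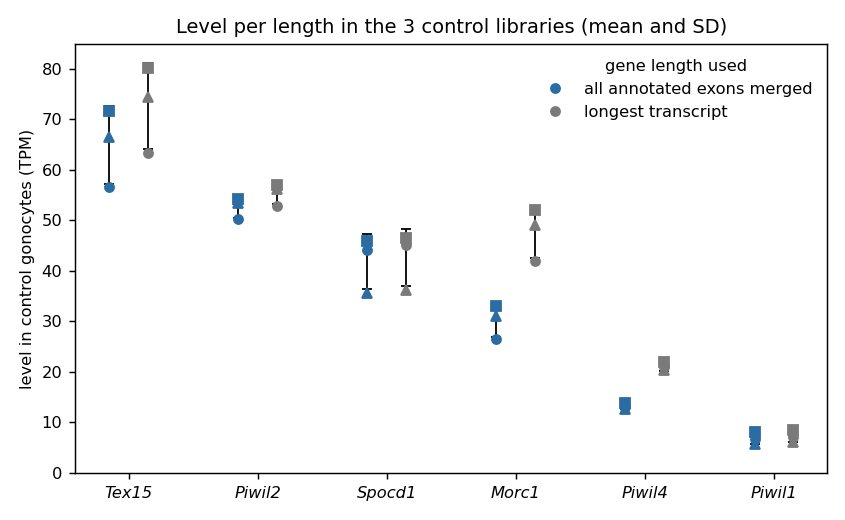
Level per length of the 6 genes in the 3 control gonocyte libraries, in TPM, with circles, squares and triangles for controls 1, 2 and 3 and bars for the mean and SD. Blue uses the merged exons of a gene and grey the longest transcript. *Tex15* and *Piwil2* lead on both lengths, while *Morc1* moves from 30.2 to 47.7 TPM and meets *Spocd1*.

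The order of *Spocd1* and *Morc1* depended on the length used. With the longest transcript in place of the merged exons, *Morc1* stood at 47.7 ± 5.15 TPM and *Spocd1* at 42.6 ± 5.56 TPM (SD, n = 3), and their control libraries overlapped. *Piwil4* rose to 21.1 TPM on that scale and kept its place above *Piwil1* at 7.28 TPM. The TPM values were low in size because the short non-coding RNA *Gm23935* took 85.6% to 88.0% of the total in controls, and protein-coding genes held only 6.15% to 6.98%. Computed over protein-coding genes alone, the control means were 983 TPM for *Tex15*, 799 for *Piwil2*, 638 for *Spocd1*, 458 for *Morc1*, 201 for *Piwil4* and 104 for *Piwil1*.

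The comparison of *Tex15*-/- with control gonocytes asks whether loss of *Tex15* is accompanied by a change in the mRNA of the PIWI genes or of the other nuclear effectors. Of the 6 genes, *Tex15* differed between the genotypes beyond the spread of the libraries, and the other 5 overlapped between groups. With edgeR's quasi-likelihood test and Benjamini-Hochberg adjustment over all genes, none of the 6 passed an adjusted p of 0.01, as none of the 16311 genes did (0% called). At an adjusted p under 0.05 there was 1 of the 6, *Tex15*, against 0.0184% of all genes (3). At an unadjusted p under 0.05 there was 1 of the 6, *Tex15*, against 9.2% of all genes (1501), and the groups did not overlap for 1 of the 6 against 13.2% of all genes. DESeq2 called 15 of 15706 genes (0.0955%), *Tex15* among them and no other of the 6.

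*Tex15*, the targeted gene, had 1509, 1667 and 1664 CPM in controls 1, 2 and 3 and 468, 230 and 249 CPM in *Tex15*-/- libraries 1, 2 and 3. All *Tex15*-/- libraries lay far below all controls, and library 1 held about as much as libraries 2 and 3 together. The log2 fold change was -2.35 (95% interval -2.86 to -1.85), with an adjusted p of 0.0112 in edgeR, and *Tex15* ranked 1 of 16311 genes by p. A mean of 19.6% of the level in the heterozygous controls was therefore still counted on the gene. Gene-level counts do not show which part of the transcript those reads came from. Leaving out *Tex15*-/- library 1 gave a log2 fold change of -2.74 and an edgeR adjusted p of 2.11e-09, and leaving out library 2 gave -2.17 and 3.23e-06. Leaving out *Tex15*-/- library 3 or control 1, 2 or 3 gave -2.20, -2.40, -2.33 and -2.33, with edgeR adjusted p of 0.136, 0.102, 0.237 and 0.256, so that *Tex15* was then not called at 0.05 either. With library 1 alone against the controls, where that library is assumed to vary like the controls, it was -1.78.

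*Piwil2*, whose protein MILI starts piRNA production, had 737, 693 and 734 CPM in controls and 695, 748 and 748 CPM in *Tex15*-/- gonocytes. The 6 values lay close together and the groups overlapped. The log2 fold change was 0.02 (95% interval -0.17 to 0.20) with an adjusted p of 0.954 in edgeR. The interval thus reached from 0.892 to 1.15 times the control level. With single libraries left out the log2 fold change ranged from -0.01 to 0.07, and without *Tex15*-/- libraries 2 and 3 it was -0.05.

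*Piwil4*, which encodes MIWI2 and carries the reporter in every library, had 196, 180 and 179 CPM in controls and 179, 168 and 172 CPM in *Tex15*-/- gonocytes. The *Tex15*-/- values lay at or below the lower end of the controls, with *Tex15*-/- library 1 just above control 3. The log2 fold change was -0.10 (95% interval -0.30 to 0.11), with an adjusted p of 0.745 in edgeR. It ranged from -0.12 to -0.05 with single libraries left out, the latter without control 1, and was -0.05 without *Tex15*-/- libraries 2 and 3. Cells of both groups were sorted on the reporter at this locus, and whether that limited a difference in *Piwil4* was not tested.

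*Piwil1* had the widest spread between *Tex15*-/- libraries among the 5 genes that were not targeted, with a coefficient of variation of 25.8%. It had 80.9, 85.2 and 65.8 CPM in controls and 76.2, 46.5 and 76.1 CPM in *Tex15*-/- gonocytes. Library 2, the one with the highest interstitial and Leydig markers, was the lowest, while libraries 1 and 3 lay within the range of the controls. The log2 fold change was -0.22 (95% interval -0.64 to 0.19) with an adjusted p of 0.706 in edgeR, and it ranged from -0.33 to -0.02 with single libraries left out, the latter without library 2. Without libraries 2 and 3 it was -0.02.

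*Spocd1*, whose protein is a nuclear partner of MIWI2, had 395, 357 and 299 CPM in controls and 369, 452 and 367 CPM in *Tex15*-/- gonocytes. *Tex15*-/- library 2 was the highest of the 6, and the groups overlapped. The log2 fold change was 0.18 (95% interval -0.10 to 0.45, adjusted p = 0.656 in edgeR). With single libraries left out it ranged from 0.07, without control 3 or without *Tex15*-/- library 2, to 0.28, without control 1, and without *Tex15*-/- libraries 2 and 3 it was 0.07. *Morc1* had 477, 516 and 524 CPM in controls and 487, 506 and 568 CPM in *Tex15*-/- gonocytes, with a log2 fold change of 0.04 (95% interval -0.16 to 0.25, adjusted p = 0.894 in edgeR). Its highest value was in *Tex15*-/- library 3 and its lowest in control 1, and its log2 fold change ranged from -0.02, without *Tex15*-/- library 3, to 0.10, without *Tex15*-/- library 1. Without *Tex15*-/- libraries 2 and 3 it was -0.05.

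**Figure D2:**
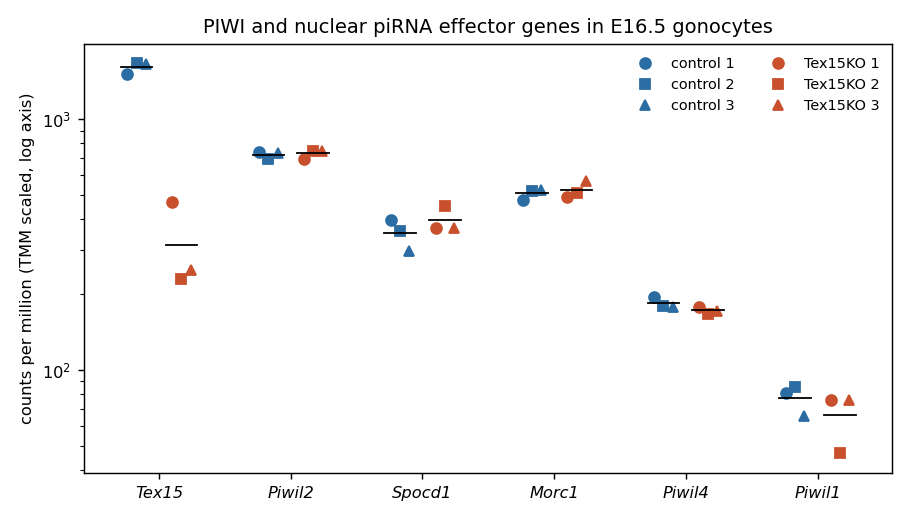
Level of each gene in every gonocyte library, in CPM on a log axis, with blue for controls, red for *Tex15*-/- (labelled Tex15KO), a symbol for each replicate number and a line for the group mean. *Tex15* is at 1509 to 1667 CPM in controls and 230 to 468 CPM in *Tex15*-/- gonocytes, while the groups of the other 5 genes overlap.

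Since the libraries differed in markers of other testis cells, each gene was also set against the summed CPM of the 8 germ cell markers of its own library. In bulk RNA, fewer germ cells and less RNA per germ cell cannot be told apart. On this scale *Tex15* was at 92.6%, 107% and 102% of the marker sum in controls and at 31.5%, 16.6% and 15.9% in *Tex15*-/- gonocytes, a log2 difference of -2.31. *Piwil2* was at 45.2%, 44.6% and 45.0% in controls and at 46.8%, 54.0% and 47.7% in *Tex15*-/- gonocytes, a log2 difference of 0.14. Its groups no longer overlapped, and the two-sided exact permutation p was 0.10, the smallest that 3 against 3 libraries can give. On this scale the groups did not overlap for 2 of the 6 genes, *Tex15* and *Piwil2*, against 16.7% of all genes tested, and 13.6% of all genes lay without overlap on the higher side, as *Piwil2* did. *Piwil4* was at 10.94% to 12.03% in controls and 10.97% to 12.10% in *Tex15*-/- gonocytes (log2 difference 0.02). The log2 differences of *Piwil1*, *Spocd1* and *Morc1* were -0.13, 0.30 and 0.16, with overlapping groups. The germ cell markers were themselves lower in *Tex15*-/- gonocytes, with negative log2 fold changes for 8 of 8, of which 2 had an unadjusted p under 0.05, and this moved all of the scaled values upwards.

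**Figure D3:**
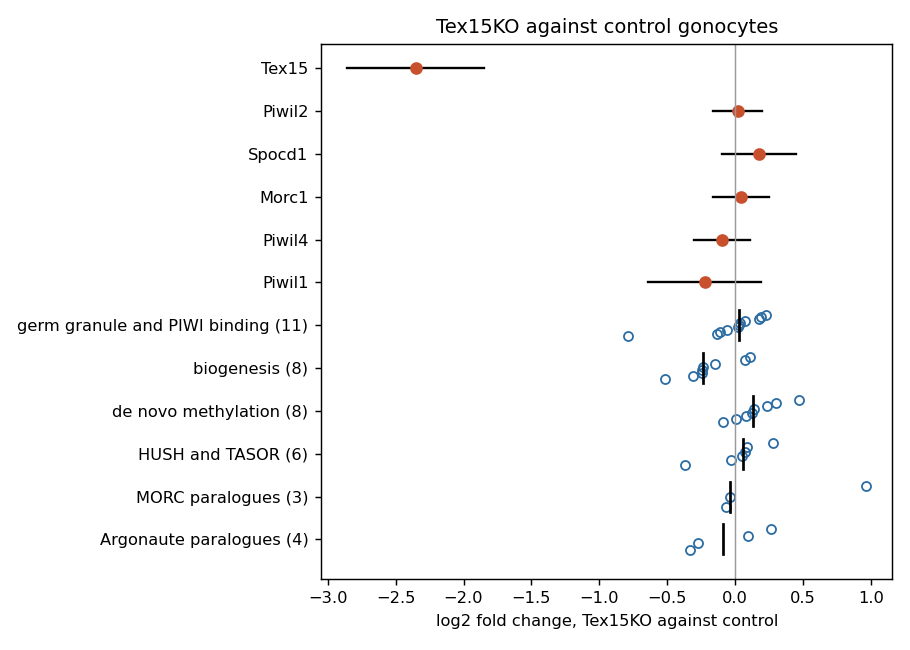
Log2 fold change of *Tex15*-/- against control gonocytes, with the 95% interval for the 6 genes in red and open circles for the other genes of the pathway by role, where the black tick is the median of a role and the number of tested genes is in parentheses. The interval of *Tex15*, from -2.86 to -1.85, lies apart from 0 and those of the other 5 genes span 0.

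The balance between the PIWI genes was read as the ratio of counts per kilobase within a library, which does not depend on library size. *Piwil2* made up most of the PIWI mRNA, with 72.4% ± 1.60 (SD, n = 3) of the summed counts per kilobase among controls and 74.5% ± 2.53 (SD, n = 3) among *Tex15*-/- gonocytes. *Piwil4* contributed 18.2% ± 0.507 and 17.3% ± 0.801 (SD, n = 3), and *Piwil1* 9.42% ± 1.28 and 8.19% ± 2.06 (SD, n = 3). The lowest *Piwil1* share, 5.82%, was in *Tex15*-/- library 2. All libraries carried the *Piwil4* reporter allele, on which the cells were sorted. How far transcripts of that allele were counted on *Piwil4* was not tested. The sizes of these shares also depend on the length used, here that of the merged exons. With the longest transcripts the control shares were 66.1% for *Piwil2*, 25.2% for *Piwil4* and 8.68% for *Piwil1*, and *Piwil2* exceeded *Piwil4* by 2.63 ± 0.123 times in controls and by 2.84 ± 0.205 times in *Tex15*-/- gonocytes (SD, n = 3).

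On the merged exons, *Piwil2* exceeded *Piwil4* by 3.83, 3.92 and 4.19 times per length in controls and by 3.96, 4.54 and 4.42 times in *Tex15*-/- gonocytes. The *Tex15*-/- values tended to the upper end, but library 1 lay within the controls. The log2 difference between genotypes was 0.11, with a two-sided exact permutation p of 0.20 and an adjusted p of 0.60 over 3 ratios. It was 0.17 without *Tex15*-/- library 1, 0.07 without library 2 and 0.09 without library 3. *Piwil1* stood at 0.511, 0.586 and 0.456 of *Piwil4* in controls and at 0.526, 0.343 and 0.547 in *Tex15*-/- gonocytes (log2 difference -0.15, exact permutation p = 0.70, adjusted p = 0.70). Against *Piwil2* it stood at 0.133, 0.149 and 0.109 in controls and at 0.133, 0.0755 and 0.124 in *Tex15*-/- gonocytes (log2 difference -0.27, exact permutation p = 0.50, adjusted p = 0.70). No ratio differed beyond the spread of the libraries, and the smallest p that this design allows is 0.10. With single libraries left out, the *Piwil1* to *Piwil4* difference ranged from -0.28, without *Tex15*-/- library 3, to 0.06, without library 2, and the *Piwil1* to *Piwil2* difference from -0.42, without *Tex15*-/- library 1, to -0.01, without library 2. With *Tex15*-/- library 1 alone against the controls, the differences of the 3 ratios were -0.01 (*Piwil2* to *Piwil4*), 0.03 (*Piwil1* to *Piwil4*) and 0.04 (*Piwil1* to *Piwil2*), with no test.

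**Figure D4:**
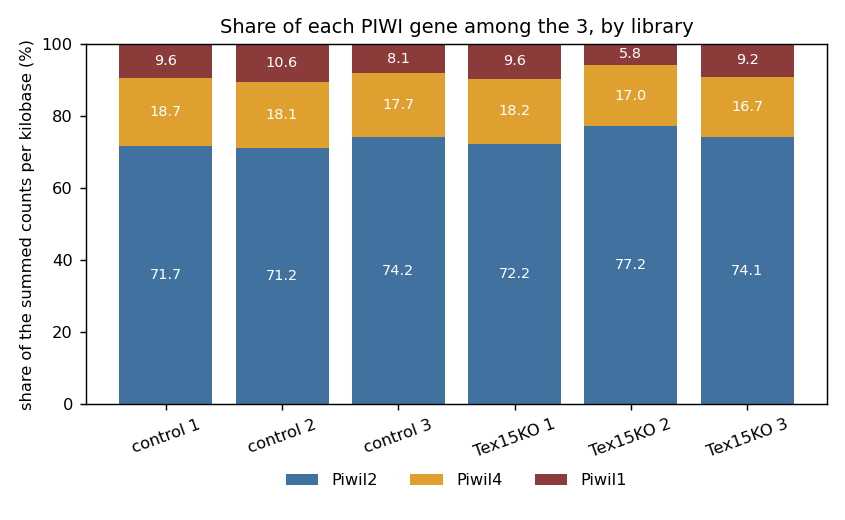
Share of *Piwil2*, *Piwil4* and *Piwil1* in the summed counts per kilobase of the 3 PIWI genes, in percent, for each gonocyte library, with *Tex15*-/- libraries labelled Tex15KO. *Piwil2* holds 71.2% to 77.2% in every library, and the *Piwil1* share is smallest in *Tex15*-/- library 2.

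The wider pathway was read from a list of 42 other genes, of which 40 could be tested. None passed an adjusted p of 0.01 in edgeR (0% of all genes did) and none was called by DESeq2. The lowest adjusted p was 0.460. At an unadjusted p under 0.05, 2 of the 40 were higher and 2 lower, a share close to the 9.2% of all genes (987 higher and 514 lower). The median log2 fold change of the 40 was 0.03, beside -3e-04 over all genes tested, of which 8152 were positive and 8158 negative. Without *Tex15*-/- libraries 2 and 3 the median of the 40 was 0.03, with 23 positive and 17 negative, beside -0.015 over all genes tested in that fit. The 4 genes, which were singled out after their values were seen, were *Tdrd12* (log2 fold change -0.79), *Pnldc1* (-0.31), *Trim28* (0.28) and *Morc4* (0.97). *Morc4* was low, with 166 reads over all libraries. It had 3.53 ± 0.481 CPM among controls and 6.91 ± 2.47 CPM among *Tex15*-/- gonocytes (SD, n = 3), with an adjusted p of 0.489 in edgeR. *Tdrd12*, which encodes a Tudor domain protein needed for piRNAs that load MIWI2, was at 63.2 ± 5.45 CPM (SD, n = 3) among controls and at 36.6 ± 10.6 CPM (SD, n = 3) among *Tex15*-/- gonocytes, with an unadjusted p of 0.00169 and an adjusted p of 0.460 in edgeR. Its groups did not overlap, which held for 13.2% of all genes tested. It passed the threshold only where *Tex15*-/- library 1 was left out, among the fits that left out libraries (log2 fold change -1.03, edgeR adjusted p = 0.00228). That fit rested on *Tex15*-/- libraries 2 and 3, those with the high markers of other testis cells, and called 388 of 17520 genes (2.21%). Without library 2 its log2 fold change was -0.63, without library 3 it was -0.72, and without both it was -0.38, with edgeR adjusted p of 0.326, 0.737 and 0.9995.

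Among the 11 tested genes of the germ granule and of PIWI binding, 7 had a positive and 4 a negative log2 fold change, with a median of 0.03. Levels per length of the pathway genes were read on the merged exons only, and their place beside other genes may change with the length used. The 2 of these 11 with the highest control level per length were *Mael* at 147 TPM and the helicase gene *Ddx4* at 92.8 TPM, both above *Tex15*. Their log2 fold changes were 0.03 and -0.06. Of the 8 genes of piRNA biogenesis, 6 were negative and the median was -0.24, or 6 and -0.11 without *Tex15*-/- libraries 2 and 3. None of the 8 was called. The 2 highest were the co-chaperone gene *Fkbp6* at 58.0 TPM and the helicase gene *Mov10l1* at 49.4 TPM, close to *Piwil2* in level, with log2 fold changes of 0.11 and -0.24.

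Of the 8 genes listed under de novo methylation, which include genes of maintenance methylation, 7 were positive and the median was 0.13. Without *Tex15*-/- libraries 2 and 3, 5 were positive and the median was 0.02. None of the 8 was called. On the merged exons, the histone demethylase gene *Kdm1b*, at 64.7 TPM, was at the level of *Tex15*. *Dnmt3l*, the cofactor of the de novo methyltransferases, was at 33.3 TPM, near *Morc1* on the same length (30.2 TPM). Their log2 fold changes were 0.30 and 0.14. The 6 genes listed under HUSH and TASOR act in heterochromatin, but not all of them encode HUSH subunits, and *Trim28* does not. Their median was 0.06. Their highest members were *Mphosph8* at 40.3 TPM and *Trim28* at 23.6 TPM, with log2 fold changes of 0.07 and 0.28.

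The list also held 4 MORC and 4 AGO genes. Among the MORC genes, *Morc2a* was at 9.86 TPM and *Morc3* at 6.43 TPM against 30.2 TPM for *Morc1*, with log2 fold changes of -0.04 and -0.07. Among the AGO genes, whose proteins bind microRNAs, *Ago1* was at 2.87 TPM and *Ago3* at 1.47 TPM, with log2 fold changes of 0.10 and -0.33. On the merged exons both lay below all of the PIWI genes. Of the 4 AGO genes, 2 were positive and 2 negative, with a median of -0.09. Without *Tex15*-/- libraries 2 and 3, all 4 were positive and the median was 0.15, so the sign of *Ago3* depended on those libraries.

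The *Actb* gene, which served as a reference in the study's own plot of these libraries, had a mean of 637 ± 43.7 CPM in the controls and of 810 ± 200.1 CPM in the knockout gonocytes (SD, n = 3), with an edgeR adjusted p of 0.535. Its log2 fold change of 0.35 was larger in size than that of any of the 6 genes except *Tex15*. Library 2, with 5586 counts, was the highest.

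For each gene, the 2 genes with the most similar pattern of log2 CPM over the 6 libraries are given as a description. They were *Pex13* and *Gm41442* for *Piwil1* (Pearson r = 0.992 and 0.987), *Park7* and *Atn1* for *Piwil2* (0.995 and 0.990) and *Crat* and *Srrm2* for *Piwil4* (0.989 and 0.984). They were *Urb1* and *Fndc3c1* for *Spocd1* (0.995 and 0.994), *Gm10801* and *Zranb3* for *Tex15* (0.993 and 0.993) and *Smyd5* and *Lamtor5* for *Morc1* (0.978 and 0.974). The points are the same 6 libraries for all pairs, so genotype and library composition are shared by them. Over 16311 genes, between 69 (*Morc1*) and 353 (*Piwil1*) had an r above 0.9. *Gm10801* had a log2 fold change of -2.50, close to that of *Tex15*.

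Small RNA from E16.5 foetal testes gave a readout on the transcripts of the same genes in another preparation, with 3 libraries of *Tex15*+/- and 3 of *Tex15*-/- foetal testes. Per the study's methods, each replicate was made from 6 foetal testes, so each library was a pool. The tables name no genes, so reads of 25 to 30 nt were matched exactly to the transcripts of each gene and kept where they had at most 1 place in the genome. Each library had between 2766977 and 30488444 reads of that length. Over all libraries, 859 reads matched the sense strand of the 6 genes and 126 the antisense strand. The signal was therefore small, at 13.5, 14.1 and 14.0 sense reads per 1000000 reads of 25 to 30 nt (RPM) in controls and at 13.5, 36.1 and 12.01 RPM in *Tex15*-/- testes. *Tex15*-/- library 2 stood apart with 36.1 RPM (exact 95% interval 29.4 to 44.0), and the other 2 lay at or below the controls. The intervals cover counting error only, since reads without molecular identifiers are not independent molecules.

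*Tex15* gave the most reads over all libraries together, 305 sense and 102 antisense, of which 162 and 47 came from control 2, the deepest library. In the mean of the controls its sense reads (4.20 RPM) were close to those of *Piwil2* (4.06 RPM). Small RNA reads were not divided by length, and the merged exons span 9622 bp for *Tex15* and 5287 bp for *Piwil2*. The order of the genes in reads is therefore not an order per length. Its sense reads were at 4.16, 5.31 and 3.12 RPM in controls and at 3.99, 16.99 and 4.3 RPM in *Tex15*-/- testes. Its antisense reads were at 1.04, 1.54 and 0.136 RPM in controls and at 0.832, 13.7 and 0.890 RPM in *Tex15*-/- testes. In *Tex15*-/- libraries 1 and 3 both strands were within the range of the controls, although *Tex15* mRNA was low in the sorted gonocytes of the same genotype. The antisense values rested on few reads, 5 and 6 in these libraries and 5 and 1 in controls 1 and 3. Library 2 was above every other library on both strands, with exact 95% intervals of 12.5 to 22.6 for sense and 9.72 to 18.9 for antisense. It was also the smallest library, and reads of 25 to 30 nt made up 24.7% of its 18 to 32 nt reads against 32.3% to 36.7% in the others. The foetal testis libraries and the gonocyte libraries share replicate numbers, but no label says that they came from the same animals.

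*Piwil2* gave 243 sense and 6 antisense reads in all. Its sense reads were at 3.12, 3.77 and 5.29 RPM in controls and at 3.66, 12.3 and 2.67 RPM in *Tex15*-/- testes, again with library 2 as the highest. *Morc1* gave 138 sense and 5 antisense reads, with mean sense reads of 2.69 ± 0.918 RPM for control and 2.18 ± 0.437 RPM for *Tex15*-/- testes (SD, n = 3), and here library 2 was the lowest. *Spocd1* gave 114 sense reads, with 1.45 to 1.97 RPM in controls and 1.997 to 2.53 RPM in *Tex15*-/- testes. The 2 ranges did not overlap, but the counts behind the *Tex15*-/- values were 12, 7 and 15 reads and their intervals, such as 1.02 to 5.21 RPM in library 2, spanned the controls. *Piwil4* gave 49 and *Piwil1* 10 sense reads, too few to compare.

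The first base of the reads differed in share between the genes. Of the sense reads, 85.6% started with T for *Piwil2*, 84.1% for *Morc1*, 83.7% for *Piwil4* and 78.1% for *Spocd1*. For *Piwil1* it was 4 of 10 reads (exact 95% interval 12.2% to 73.8%). Over all reads of 25 to 30 nt, the share was 69.8% to 72.2% per library. For *Tex15* it was 67.5% of 305 sense reads (exact 95% interval 62.0 to 72.8) and 34.3% of 102 antisense reads (exact 95% interval 25.2 to 44.4), and neither of the *Tex15* sequences printed above starts with T. These shares pool libraries and repeated sequences, so they describe the reads and carry no test.

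**Figure D5:**
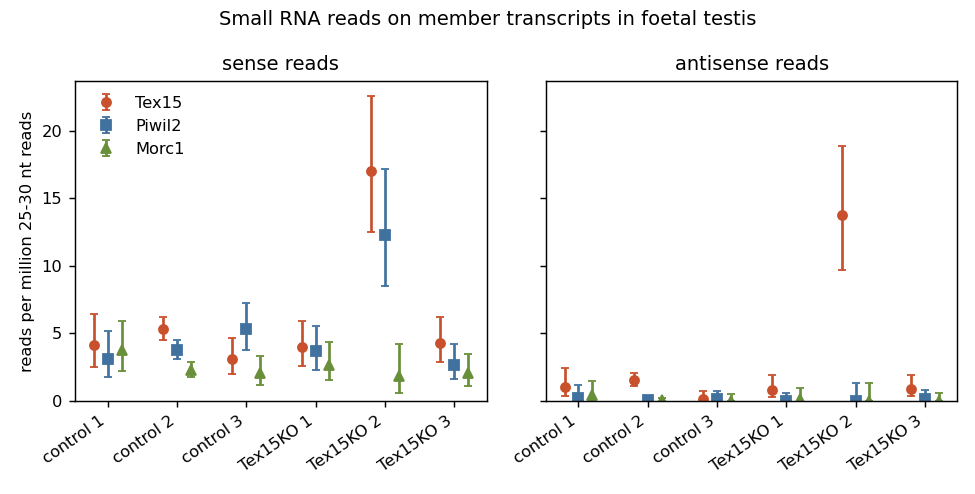
Reads of 25 to 30 nt on the transcripts of *Tex15*, *Piwil2* and *Morc1* in RPM, on the sense strand (left) and antisense strand (right) of each foetal testis library, with exact 95% binomial intervals. *Tex15*-/- library 2 (labelled Tex15KO 2) holds 16.99 sense and 13.7 antisense RPM on *Tex15*, above all other libraries.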

How the data were processed

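For gonocyte RNA-seq, the authors used HISAT2 on GRCm38 and HTSeq 0.11.1, and the counts they deposited are whole numbers of reads for each Ensembl gene that were not normalised. The strand setting of the counting is not given in the sources used here. Rows for reads assigned to no gene held 61.3% to 67.3% of each table and were left out. For small RNA, the authors trimmed reads with cutadapt 1.8.1, annotated them with Bowtie 1.2.1.1 and deposited the count of each sequence.

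Counts were compared with edgeR 4.0.16 in R 4.3.3, using TMM, filterByExpr (minimum count 10, minimum total 15), the quasi-likelihood test with genotype alone, and Benjamini-Hochberg adjustment over all genes, with a call at an adjusted p under 0.01, a threshold the study states for its heat map of TEs. DESeq2 1.42.0 was an alternative. CPM were TMM scaled. TPM were computed from counts and the merged exons of GENCODE vM21, which gave a symbol to 54809 of the 54838 identifiers. Ratios had 0.5 counts added. Intervals have 95% confidence. Depth was 4893265 to 5697020 gene reads per library, and replicates of a group differed by more than sampling noise (chi-square per degree of freedom 3.04 to 16.7).

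The members, lists of genes and naming rule were chosen with earlier results of these data known. Named were all members, pathway genes with an adjusted p under 0.05 (there were none), the 2 genes of each role with the highest control level, the 2 genes most like each member, and *Actb*. *Tdrd12*, *Pnldc1*, *Trim28* and *Morc4* were named for an unadjusted p under 0.05, after their values were seen. *Rspry1*, *Gm10800* and *Gm23935* were also named after their values were seen. Chosen after seeing the data were the exact matching of small RNA (first 24 bases searched in the genome with Python 3.11.15), reads with up to 100 places, the scaling by germ cell markers, TPM over protein-coding genes, and the fit without *Tex15*-/- libraries 2 and 3. The script was tested on simulated counts. P20 and repeat tables were not used here.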

Additional observations from a re-analysis of the deposited data

Results flagged for a closer look

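Reads on *Tex15* in the small RNA of foetal testis *Tex15*-/- library 2 were above the level in every control library. On the sense strand there were 16.99 reads per 1000000 reads of 25 to 30 nt (RPM), from 47 reads, against at most 5.31 RPM in controls. On the antisense strand there were 13.7 RPM, from 38 reads, against at most 1.54 RPM in controls. Libraries 1 and 3 of the same genotype had 3.99 and 4.3 RPM sense and 0.832 and 0.890 RPM antisense, so the difference lay in 1 library. Sense reads of *Piwil2* (12.3 RPM), *Spocd1* (2.53 RPM) and *Piwil4* (2.53 RPM) were also highest there, the last 2 from 7 reads each, while those of *Morc1* (1.81 RPM, from 5 reads) were lowest and *Piwil1* had none, where 3 reads would be 1.08 RPM. The cause was not tested. The RNA-seq groups of 3 libraries were too small for a test of single outlying samples.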

How the results depend on the processing

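*Tex15* kept a negative log2 fold change under all 16 alternatives, from -2.74 to -1.78, but its call depended on the setting. The all-genes count of 0 calls at an adjusted p under 0.01 became 488 without a filter on low counts, 1 with at least 10 counts in every library, 15 with DESeq2, 2 with edgeR's other quasi-likelihood estimate, 3 at an adjusted p under 0.05 (*Tex15*, *Rspry1* and *Gm10800*) and 18 without *Tex15*-/- libraries 2 and 3. Under each of these 6 settings, 1 of the members was called, *Tex15*. With single libraries left out, the all-genes count ranged from 0 to 388, the highest without *Tex15*-/- library 1, and the count of members called from 0 to 1, with *Tex15* called without *Tex15*-/- library 1 or 2. Its edgeR adjusted p was 0.102 to 0.256 without any 1 of the other 4 libraries. In the pathway list the count of 0 became 1, *Tdrd12*, without a filter, and ranged from 0 to 1 with single libraries left out. The log2 fold change of *Piwil2* turned to -0.012 without TMM factors, -0.0085 without control 2 and -0.051 without *Tex15*-/- libraries 2 and 3, that of *Morc1* to -0.017 without *Tex15*-/- library 3 and -0.052 without libraries 2 and 3, and that of *Piwil4* to 0.023 relative to the germ cell markers. With single libraries left out, that of *Piwil2* reached at most 0.067. None of these 3 genes was called under any alternative, nor were *Piwil1* and *Spocd1*, which kept their direction. The log2 difference of the *Piwil1* to *Piwil4* ratio ranged from -0.28 to 0.060 with single libraries left out.

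With the length of the longest transcript, control levels moved to 55.3 TPM for *Piwil2*, 21.1 for *Piwil4*, 72.6 for *Tex15* and 47.7 for *Morc1*. As CPM per kilobase they were 17.7 for *Piwil1*, 136 for *Piwil2*, 34.3 for *Piwil4*, 109 for *Spocd1*, 168 for *Tex15* and 78.1 for *Morc1*, and as TPM over protein-coding genes 104, 799, 201, 638, 983 and 458 in the same order, because the denominator is smaller. For *Tex15* antisense small RNA, the log2 ratio of *Tex15*-/- to control was 2.51 and ranged from -0.073 to 3.13 with single libraries left out, the lowest without *Tex15*-/- library 2. Without that library the log2 ratio of sense reads over all members was -0.12 in place of 0.57.

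Replicate numbers are shared between groups, but the deviations of same-numbered libraries correlated at -0.143, -0.043 and -0.008, so the numbers were not taken to pair the samples. With the replicate number as a block, 0 genes and 0 members were called, and the log2 fold change of *Tex15* was -2.43 (edgeR adjusted p = 0.0155). The *Piwil2* to *Piwil4* difference was 0.11 with this block. Its exact permutation p was 0.25, the smallest that swaps within replicate numbers can give.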
